A study of Mus musculus with 743 samples.

Results

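Schwann cells (SCs) that had begun to transcribe *Ncmap* were compared by how much *Mbp* they held, in sciatic nerves taken from mouse pups on postnatal day 1. The members were chosen by 3 readouts of each cell. A cell needed at least 1500 detected genes, at least 50 CPM of *Ncmap* (reads of the gene per 1000000 reads of the cell), and less than 50 CPM of *Mki67* and *Top2a* together. Of 743 wells, 621 passed the minimum of detected genes and 119 of these met the whole rule, 59 on plate 1 and 60 on plate 2. On each plate, cells above that plate's median of *Mbp* are called Mbp-high here (29 cells on plate 1 and 30 on plate 2), and the others Mbp-low (30 and 30 cells). *Mbp*, *Ncmap*, *Mki67* and *Top2a* thus made the groups, and their values are given as a description with no test.

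The mice carried P0Cre, a Cre recombinase driven by a promoter active in the SC lineage, a Rosa26 reporter that makes eYFP after recombination, and a β-actin DsRed transgene, in all cells compared alike. Cells positive for eYFP were sorted singly into the wells of plates, and their transcripts were read along their length by Smart-seq2, a method without molecular identifiers. Each of the 2 plates received its own pool of 1 male and 1 female pup, which makes the plate, not the cell, the replicate (n = 2). The labels give each plate its own technical run, so animals and run cannot be told apart between plates, while both *Mbp* groups are present on each. The eYFP label marks every cell in which Cre was active, SC or not.

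Myelinating SCs leave the cell cycle, pair with a single large axon and wrap it with their membrane. Their onset depends on axonal neuregulin, on contact with the basal lamina, and on Sox10, Pou3f1 (Oct6) and Egr2 (Krox20), which drive genes of compact myelin and of lipid synthesis. Myelin basic protein, made by *Mbp*, holds the cytoplasmic faces of the membrane together, and its messenger RNA is carried into the processes before translation. *Ncmap* makes a small membrane protein of noncompact myelin.

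The groups did not overlap in *Mbp*, as the rule requires. On plate 1, *Mbp* ran from 413.1 to 7885 CPM in Mbp-low cells, and from 8041 to 36620 CPM in Mbp-high cells. On plate 2 it ran from 737.4 to 7533 CPM and from 7582 to 40420 CPM. Cells just inside and just outside the split were therefore nearly alike, and a cell near the median could fall on either side with little change in *Mbp*. Summed over the cells of a plate, *Mbp* took 13570 and 13240 CPM in Mbp-high cells (13400 ± 232 CPM, SD, n = 2 plates) and 4492 and 4870 CPM in Mbp-low cells (4681 ± 267 CPM). *Ncmap* was selected on too, but only by its minimum. Its summed level was 1846 and 1794 CPM in Mbp-high cells and 1344 and 1269 CPM in Mbp-low cells. The lowest *Ncmap* inside the rule was 85.28 CPM on plate 1 and 50.28 CPM on plate 2, and the highest outside it was 30.57 and 43.32 CPM.

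The name promyelinating was checked against marker genes and against the 392 noncycling cells with *Ncmap* under 50 CPM, the most similar population. Of 10 markers of promyelinating SCs outside the rule, 9 were at least 2-fold above the Ncmap-negative cells on both plates, among them *Drp2*, which was scarce (1.75 and 21.5 CPM against 0 CPM). The exception was *Mal*, at 2610 and 2360 CPM against 1850 and 1920 CPM. *Pou3f1* and *Cdkn1c*, which the study uses to mark promyelinating SCs, were not on the list. Over groups and plates *Pou3f1* took 172 to 265 CPM, against 118 to 177 CPM in Ncmap-negative cells. *Cdkn1c* took 768 to 1654 CPM against 425 to 934 CPM. As the list holds mostly myelin genes, the check could not separate promyelinating from myelinating SCs. Of 8 markers of immature SCs, 6 were at least 2-fold below. *Ngfr* was near absent, with a read in 1.68% of the 119 cells. *Nes* went the other way, at 155 and 224 CPM against 64.1 and 47.2 CPM, and *Gap43* was under 1 CPM in both populations. *Sox10*, the defining SC transcription factor, had a read in 92.4% of the cells.

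Both groups differed in library properties that are given here once and not tested as causes. Mbp-high cells held fewer reads, a median of 767200 and 717500 per cell against 985600 and 1001000, but more detected genes, 4161 and 3856 against 3342 and 3074. At 100000 reads per cell, reached by 28, 25, 30 and 30 of the cells, the medians were 3654 and 3536 genes against 2929 and 2736. Over the cells of a plate, *Mbp* and the number of detected genes had a Spearman rho of 0.65 on plate 1 and 0.62 on plate 2. Each group's sum held between 19007067 and 33061073 reads. Mitochondrial genes took 4.001% and 4.202% of the reads of Mbp-high cells and 4.771% and 4.818% of those of Mbp-low cells, and ribosomal protein genes took 5.45% and 5.68% against 6.39% and 5.70%. A sum over cells does not by itself tell fewer expressing cells from less RNA per cell. For some genes, shares of cells with a read or medians over cells are therefore given beside the sums.

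**Figure D1:**
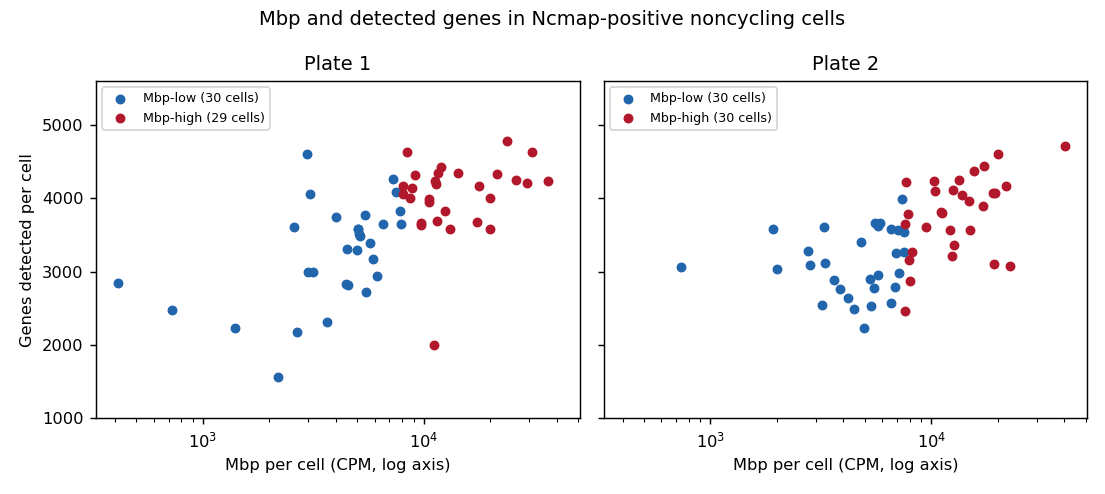
Each point is 1 cell, with *Mbp* in CPM on a log axis and the number of detected genes on the vertical axis, for plate 1 (left) and plate 2 (right); colours mark Mbp-high and Mbp-low cells. Mbp-high cells mostly sit above 3000 detected genes, and Mbp-low cells reach down to 1562 genes on plate 1 and 2235 on plate 2.

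Markers of other cells of the nerve were scarce. *Pecam1*, *Cdh5*, *Kdr* and *Emcn* of endothelial cells, *Pdgfra* of fibroblasts, *Ptprc* and *Tyrobp* of immune cells, and *Acta2* and *Rgs5* of mural cells had a read in 0 of the 119 cells, which allows a share of up to 2.52%. The other listed markers summed to 10.5 and 21.2 CPM against 37.5 and 19.1 CPM for fibroblasts in Mbp-high and Mbp-low cells. Immune markers took 34.5 and 4.95 CPM against 7.46 and 1.51 CPM, most of it *Csf1r*. Mural markers took 120 and 32.2 CPM against 13.9 and 36.8 CPM, from *Pdgfrb* and *Cspg4*. The 8 genes of the response to dissociation took 2876 and 2520 CPM against 1750 and 2359 CPM, without overlap between the groups. Reads of a Y-linked gene were found in 10 and 8 Mbp-high cells and in 9 and 10 Mbp-low cells. The part of any of these in the results was not tested.

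The main comparison asked which genes outside the rule differ between Mbp-high and Mbp-low cells beyond the spread between plates. Reads were summed per plate and group, and the 4 sums were tested with edgeR over 11073 genes. At an adjusted p under 0.05, edgeR called 0 genes (0%), and the lowest adjusted p was 0.813. At an unadjusted p under 0.05 there were 401 genes with a higher level in Mbp-high cells (3.62%) and 254 with a lower one (2.29%). The sums of both plates were above those of the other group, with no overlap, for 2185 genes in Mbp-high cells (19.7%) and for 1903 genes in Mbp-low cells (17.2%). DESeq2 on the same sums called 130 genes higher and 72 lower, and limma on the mean CPM per cell called 0 and 0. Without the filter on low counts edgeR called 8 and 4. None of the levels that follow passed the main test after adjustment, and counts within a list are to be read against these shares of all genes. Over all genes tested the median log2 fold change was -0.00086.

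*Mag*, the adhesion protein on the membrane next to the axon, had the smallest p of all genes tested. It took 792 CPM on plate 1 and 779 CPM on plate 2 in Mbp-high cells, and 257 and 244 CPM in Mbp-low cells. The cells themselves overlapped, with a range of 3.90 to 2264 CPM on plate 1 and 112 to 2397 CPM on plate 2 in Mbp-high cells and of 0 to 1213 CPM and 0 to 1120 CPM in Mbp-low cells. The medians over cells were 669 and 689 CPM against 152 and 52.5 CPM. The log2 fold change was 1.64 (SE 0.20, unadjusted p = 0.000128, adjusted p = 0.813, edgeR), a 3.12-fold level. *Mag* had a read in all Mbp-high cells and in 80.0% and 83.3% of Mbp-low cells. It lies on chromosome 7 from 30899176 to 30914873, on the minus strand (GRCm38, GENCODE M21).

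*Pllp*, which makes the membrane protein plasmolipin, had 712 and 783 CPM in Mbp-high cells and 295 and 347 CPM in Mbp-low cells, a log2 fold change of 1.21 (SE 0.21). Its medians over cells were 581 and 831 CPM against 214 and 342 CPM. *Pmp22*, a tetraspan protein of compact myelin, took 14580 and 15660 CPM against 9355 and 9669 CPM, a log2 fold change of 0.66 (SE 0.10), with medians over cells of 13100 and 13580 CPM against 7058 and 7660 CPM. For both of these genes the plates gave nearly the same levels, and the groups did not overlap. *Pllp* overlaps *Gm45767* on the other strand, and as strand use in counting is not stated, reads of such pairs cannot be told apart.

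Against these stood *Ednrb*, the endothelin receptor type B, which is known from SC precursors and immature SCs. It took 678 and 581 CPM in Mbp-high cells and 1531 and 2301 CPM in Mbp-low cells. The log2 fold change was -1.61 (SE 0.23), a 3.06-fold higher level in Mbp-low cells. Medians over cells were 553 and 618 CPM against 912 and 1707 CPM. In Ncmap-negative cells, split at their own median of *Mbp*, *Ednrb* was higher throughout, at 3863 and 3558 CPM in their Mbp-high and 5057 and 4941 CPM in their Mbp-low cells. *Ednrb* lies on chromosome 14 from 103814625 to 103844402, on the minus strand.

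The 250 bases before the RefSeq start (GRCm38.p6) are shown for *Mag* and *Pllp*, which were higher with *Mbp*, and for *Ednrb*, which was lower, to let them be read side by side. Each is 5′ to 3′ on the strand of the gene, at chr7:30914864-30915113, chr8:94696243-94696492 and chr14:103843702-103843951, all on the minus strand. *Mag* has more than 1 start in RefSeq and 1 of its 3 windows is given. The *Ednrb* window lies wholly inside the gene as GENCODE M21 places it, as its RefSeq start is downstream of the GENCODE start. Those of *Mag* and *Pllp* lie at the GENCODE start, so the positions are not alike. Capitals mark matches to short cores searched on both strands.

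Mag: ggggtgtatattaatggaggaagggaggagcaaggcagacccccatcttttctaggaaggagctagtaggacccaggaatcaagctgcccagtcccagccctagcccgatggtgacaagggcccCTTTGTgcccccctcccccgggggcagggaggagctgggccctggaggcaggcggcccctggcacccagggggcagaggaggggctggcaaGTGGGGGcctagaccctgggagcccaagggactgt

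Pllp: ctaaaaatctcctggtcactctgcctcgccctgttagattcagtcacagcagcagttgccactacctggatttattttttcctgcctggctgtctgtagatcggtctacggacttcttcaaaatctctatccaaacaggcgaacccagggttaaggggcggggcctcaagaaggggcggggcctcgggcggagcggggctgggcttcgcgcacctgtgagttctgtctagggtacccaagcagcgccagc

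Ednrb: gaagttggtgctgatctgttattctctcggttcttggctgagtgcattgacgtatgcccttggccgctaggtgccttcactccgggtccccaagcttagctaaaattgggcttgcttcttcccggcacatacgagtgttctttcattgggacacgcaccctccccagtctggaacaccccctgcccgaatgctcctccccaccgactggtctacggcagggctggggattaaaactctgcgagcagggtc

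The cores searched were ACAAAG (SOX), GTGGGNG (EGR), GGAATG (TEAD) and TCACNCCA (sterol element), with no overlap among the matches found. The *Mag* window held 1 SOX core, on its reverse strand, and 1 EGR core. The *Pllp* and *Ednrb* windows held none of the 4. Of 32851 such windows of all genes, 16.5% held the SOX core, 28.1% the EGR core, 12.6% the TEAD core and 3.67% the sterol element. Short cores of this kind are common, and a match is a description of the letters only.

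**Figure D2:**
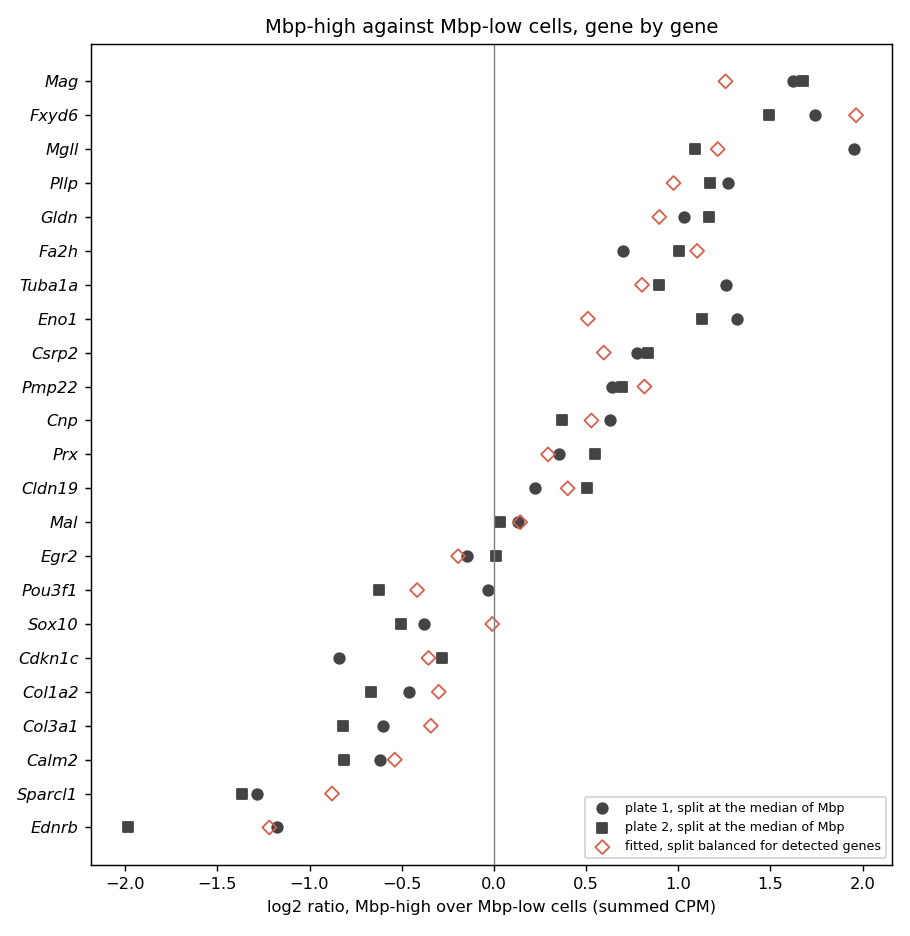
Filled points give the log2 ratio of summed CPM, Mbp-high over Mbp-low cells, on plate 1 (circles) and plate 2 (squares), and open diamonds the fitted log2 fold change when both groups held cells of like gene number. *Mag*, *Fxyd6*, *Mgll* and *Pllp* lie to the right on both plates and *Ednrb* and *Sparcl1* lie farthest to the left, while *Egr2* and *Mal* lie near 0.

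Compact myelin genes were divided. Of 7 tested, 4 had an unadjusted p under 0.05 with a higher level in Mbp-high cells, among them *Pmp22*, *Pmp2* and *Cd9*, and 0 had one with a lower level. The median log2 fold change of the list was 0.52. *Pmp2*, a fatty acid binding protein, took 2852 and 2611 CPM against 1868 and 1924 CPM. *Mal*, a lipid raft protein, differed less between groups than between plates, at 2755 and 2394 CPM against 2512 and 2342 CPM. When the groups were balanced for detected genes the list median was 0.29, with *Pmp22* at 0.82. The balanced groups also differed less in *Mbp* itself, with a log2 fold change of 1.22 instead of 1.51. The part of this in the balanced values given here and below was not tested.

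Of 18 genes of noncompact myelin, the paranode and the abaxonal membrane, 6 had an unadjusted p under 0.05 with a higher level (*Mag*, *Cnp*, *Prx*, *Gjc3*, *Pllp* and *Cadm2*) and 0 with a lower one. The groups did not overlap for 7 higher and 2 lower genes, and the median log2 fold change was 0.35. *Cnp*, a cyclic nucleotide phosphodiesterase of noncompact myelin, took 3026 and 2540 CPM against 1955 and 1967 CPM. *Prx*, the abaxonal scaffold periaxin, took 1710 and 2046 CPM against 1341 and 1398 CPM. *Cldn19*, a claudin of the tight junctions of the SC, differed more between plates (812 and 497 CPM against 697 and 350 CPM) than between groups. *Drp2*, the dystrophin related partner of periaxin, was all but undetected, at 0.0475 and 27.4 CPM against 2.90 and 18.1 CPM, and nearly all of its reads came from 3 cells of a plate. Of 5 tested genes of the node and axon contact, *Gldn* (gliomedin, which gathers sodium channels at nodes) was higher at an unadjusted p under 0.05, with 97.2 and 137 CPM against 47.5 and 61.1 CPM. The 3 leading cells of a plate gave 60.8% and 48.8% of its reads in Mbp-high cells and 74.9% and 81.5% in Mbp-low cells. The list median was 0.27, and 0.62 with the groups balanced.

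The transcription factors that drive myelination were nearly level as a list. Of 13 tested, 1 was higher at an unadjusted p under 0.05, *Nab2*, a corepressor that binds Egr2, with 99.4 and 80.0 CPM against 27.8 and 35.8 CPM. The 3 leading cells of a plate gave 55.85% and 68.97% of its reads in Mbp-high cells and 62.66% and 81.74% in Mbp-low cells. The list median was 0.03, and -0.08 with the groups balanced for detected genes. *Egr2* took 312 and 309 CPM in Mbp-high cells and 346 and 306 CPM in Mbp-low cells, a log2 fold change of -0.08 (SE 0.23). *Pou3f1* took 185 and 172 CPM against 189 and 265 CPM (-0.35, SE 0.30), and *Sox10* took 193 and 170 CPM against 251 and 242 CPM (-0.45, SE 0.27). Each of these 3 differences was less than 2 times its error. The groups did not overlap for 3 higher genes (*Nab1*, *Nab2* and *Srebf2*) and 2 lower ones (*Pou3f1* and *Sox10*). With the groups balanced, *Egr2* was at -0.19, *Pou3f1* at -0.42 and *Sox10* at -0.01. Summed over the list, the level was 1430 and 1373 CPM against 1513 and 1447 CPM.

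Among 10 tested negative regulators of myelination, 1 was higher at an unadjusted p under 0.05 and 1 lower. The higher gene was *Jun*, at 208 and 177 CPM against 80.0 and 117 CPM, and the lower gene was *Ednrb*. The groups did not overlap for 2 higher and 5 lower genes, and the list median was -0.29. *Id2*, an inhibitor of helix-loop-helix factors, took 810 and 1007 CPM against 1116 and 1379 CPM. *Sox2* was nearly absent, at 3.66 and 0.368 CPM against 16.24 and 17.97 CPM, with most reads from 3 cells of a plate, and its log2 fold change turned from -3.10 to 0.48 with the groups balanced. *Jun* is an immediate early gene, as is *Fos* of the dissociation list, which took 2503 and 2057 CPM against 1444 and 1906 CPM. Of 10 markers of the immature SC tested, *Cadm3* was higher at an unadjusted p under 0.05 (23.3 and 15.5 CPM against 0.193 and 0 CPM), and the list median was 0.36. Balanced for detected genes, the list median turned to -0.15 and the log2 fold change of *Cadm3* went from 7.57 to 1.85. *Ncam1* took 170 and 202 CPM against 150 and 156 CPM, and its log2 fold change went from 0.28 to -0.43.

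Genes of cholesterol synthesis and uptake leaned to Mbp-high cells with few single genes standing out. Of 23 tested, 2 had an unadjusted p under 0.05 and were higher (*Mvd* and *Stard4*), and 0 were lower. The groups did not overlap for 11 higher genes and 1 lower gene. The median log2 fold change was 0.60, and 1.00 with the groups balanced for detected genes. Summed over the list, the level was 2683 and 2450 CPM against 1883 and 1574 CPM. *Mvd*, a decarboxylase of the mevalonate pathway, took 141 and 80.3 CPM against 33.8 and 45.8 CPM. The 3 leading cells of a plate gave 68.96% and 63.37% of its reads in Mbp-high cells and 81.75% and 87.31% in Mbp-low cells. For *Stard4* they gave 92.01% and 90.19% against 100% and 100%, so both genes rested on few cells. *Hmgcs1* crossed over, with 124 and 222 CPM against 220 and 79.4 CPM.

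Fatty acid and sphingolipid genes were mixed. Of 23 tested, 3 had an unadjusted p under 0.05 with a higher level (*Cers2*, *Fa2h* and *Gal3st1*) and 0 with a lower one, and the median was 0.21. Those 3 act on sphingolipids. *Fa2h*, which hydroxylates the fatty acids of myelin galactolipids, took 281 and 384 CPM against 173 and 192 CPM. *Cers2*, a ceramide synthase for very long chains, took 436 and 345 CPM against 147 and 237 CPM, and its log2 fold change went from 1.02 to 0.40 with the groups balanced. *Gal3st1*, which makes sulfatide, took 266 and 140 CPM against 85.9 and 109 CPM, but its log2 fold change went from 1.04 to -0.35 when the groups were balanced for detected genes. *Scd2*, a fatty acid desaturase, was level at 588 and 510 CPM against 602 and 621 CPM.

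**Figure D3:**
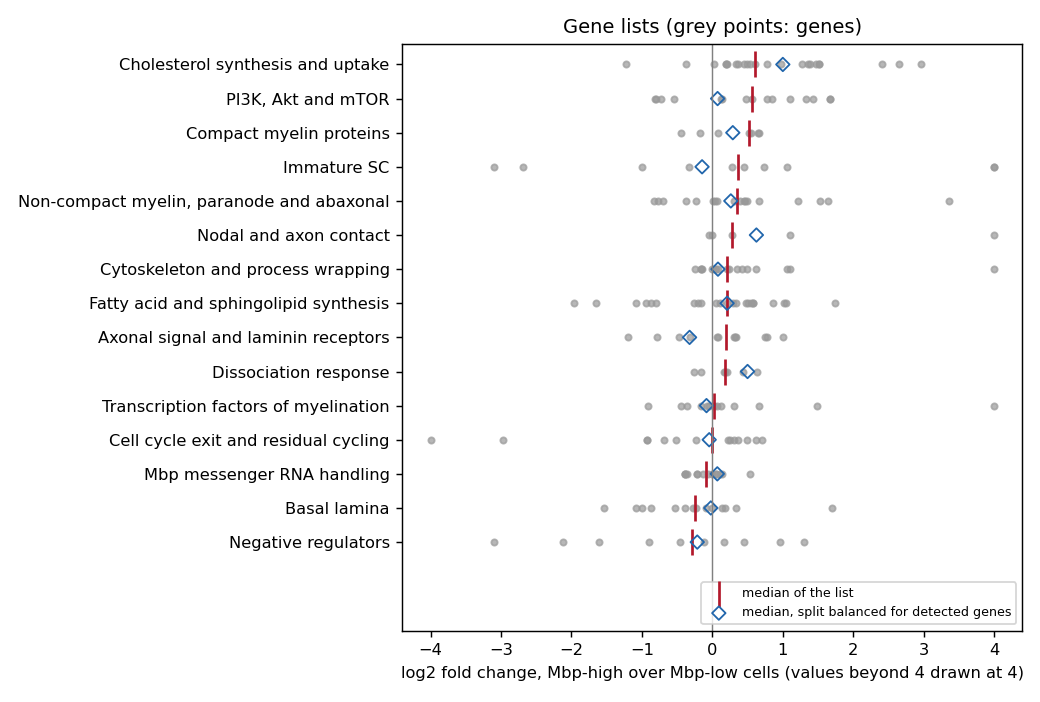
Each grey point is the log2 fold change of 1 gene, Mbp-high over Mbp-low cells, red bars are list medians and open diamonds list medians with the groups balanced for detected genes. Of the 15 lists drawn, each with at least 5 genes tested, cholesterol synthesis has the highest median (0.60) and negative regulators the lowest (-0.29), and points of every list drawn lie on both sides of 0.

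Receptors for axonal signals and laminin gave 0 higher and 1 lower gene of 12 at an unadjusted p under 0.05. *Erbb3*, the neuregulin receptor, took 209 and 143 CPM in Mbp-high cells and 326 and 276 CPM in Mbp-low cells, and its partner *Erbb2* took 84.1 and 112 CPM against 60.2 and 36.7 CPM. The list median was 0.20, and -0.32 with the groups balanced for detected genes. Of 14 basal lamina genes 0 were higher and 2 lower, with a median of -0.25. *Lamb1*, a laminin chain, took 1045 and 1039 CPM against 1627 and 1359 CPM, and *Nid2*, a nidogen, took 95.2 and 185 CPM against 370 and 224 CPM. With the same balance the basal lamina median was -0.02, *Lamb1* went from -0.53 to -0.16 and *Nid2* from -1.09 to -0.70.

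The cell cycle list, read within cells chosen by low *Mki67* and *Top2a*, gave 1 higher and 1 lower gene of 14 at an unadjusted p under 0.05, with a median of -0.01. *Cdkn1a*, the inhibitor p21, took 1953 and 2235 CPM against 1398 and 1571 CPM. *Cdkn1c*, the inhibitor p57, took 768 and 1359 CPM against 1377 and 1654 CPM, and the plates differed about as much as the groups. The lower gene, *Rbl1*, had 0 reads in Mbp-high cells and 5.98 and 5.08 CPM in Mbp-low cells, in 3.33% and 6.67% of the cells, and its direction turned when the groups were balanced for detected genes (log2 fold change 0.19).

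Of 14 genes that handle *Mbp* messenger RNA, 0 were higher and 0 lower at an unadjusted p under 0.05, and the median was -0.09, or 0.07 with the groups balanced. *Qk*, an RNA-binding protein needed for myelin, took 1643 and 2494 CPM against 1828 and 2460 CPM, so that the plates differed more than the groups. Of 15 genes of PI3K, Akt and mTOR signalling 1 was higher, *Pik3r1*, with 213 and 97.0 CPM against 66.26 and 30.01 CPM. Its log2 fold change went from 1.67 to 0.22 when the groups were balanced, and to -0.02 with the plate as a block as well, and the list median went from 0.57 to 0.07. Of 17 genes of the cytoskeleton 1 was higher, *Tuba1a*, and the median was 0.21, or 0.08 balanced. Of 7 dissociation genes tested 0 were higher and 0 lower, with a median of 0.19, or 0.50 balanced.

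By the rule for leading genes, the 10 highest by p in Mbp-high cells were *Mag*, *Fxyd6*, *Pmp22*, *Tuba1a*, *Eno1*, *Pllp*, *Csrp2*, *Mgll*, *Necap2* and *Surf4*. None passed adjustment (adjusted p = 0.813 for each, edgeR). *Fxyd6*, a regulator of the sodium pump, took 593 and 615 CPM against 177 and 218 CPM, a log2 fold change of 1.60 (SE 0.23). Its medians over cells were 448 and 478 CPM against 7.03 and 44.3 CPM. *Tuba1a*, an alpha-tubulin with near-identical relatives whose reads could be split by the counting, took 2014 and 1842 CPM against 843 and 989 CPM, with medians over cells of 2062 and 1608 CPM against 694 and 727 CPM. *Mgll*, which breaks down monoacylglycerols, took 466 and 368 CPM against 120 and 173 CPM, with medians of 392 and 234 CPM against 6.25 and 0 CPM. *Csrp2*, a LIM domain protein, took 1810 and 1881 CPM against 1055 and 1052 CPM, with medians of 1745 and 1636 CPM against 842 and 872 CPM. Balanced for detected genes, the log2 fold change of *Fxyd6* was 1.96 and that of *Mgll* 1.21, while those of *Eno1* and *Surf4* went from 1.21 to 0.51 and from 1.47 to 0.38.

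The 10 lowest were *Ednrb*, *mt-Cytb*, *Col3a1*, *Calm2*, *Eapp*, *Sparcl1*, *Col1a2*, *Spin1*, *Raly* and *Exosc1*, again with an adjusted p of 0.813 each by edgeR. *Col3a1*, a fibrillar collagen chain, took 1835 and 1791 CPM in Mbp-high cells and 2789 and 3156 CPM in Mbp-low cells. Its medians over cells were 1522 and 1074 CPM against 2409 and 2798 CPM. *Col1a2* took 1757 and 1660 CPM against 2416 and 2630 CPM. The fibroblast markers listed above were at 0 or low in these cells. *Dcn* had a read in 13 of 119, with 579 reads in Mbp-high and 1797 in Mbp-low cells, while *Lum* had 44 and 0. The part of fibroblast RNA in the collagen levels was not tested. *Calm2*, a calmodulin gene, took 1476 and 1372 CPM against 2269 and 2407 CPM, with medians of 1183 and 1045 CPM against 1760 and 2175 CPM. *Sparcl1*, a matricellular protein, took 227 and 154 CPM against 554 and 397 CPM. Balanced for detected genes, *Calm2* was at -0.54 and *Col3a1* at -0.34, and *mt-Cytb* went from -0.54 to -0.19.

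Levels along *Mbp* were described in 4 bins per plate of 14 or 15 cells. *Mag* took 63.4, 468, 534 and 1134 CPM from the lowest to the highest bin on plate 1, and 265, 221, 740 and 837 CPM on plate 2. *Pllp* took 239, 355, 405 and 1118 CPM, and 355, 338, 553 and 1124 CPM, so that most of its difference lay in the top bin on both plates. *Ednrb* had the reverse course, with 1958, 1067, 626 and 746 CPM on plate 1 and 3396, 1112, 689 and 419 CPM on plate 2. Its highest bin was the lowest of *Mbp* on both plates. Over the same bins the median number of detected genes was 2839, 3579, 4033 and 4232 on plate 1 and 3035, 3271, 3650 and 4072 on plate 2.

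**Figure D4:**
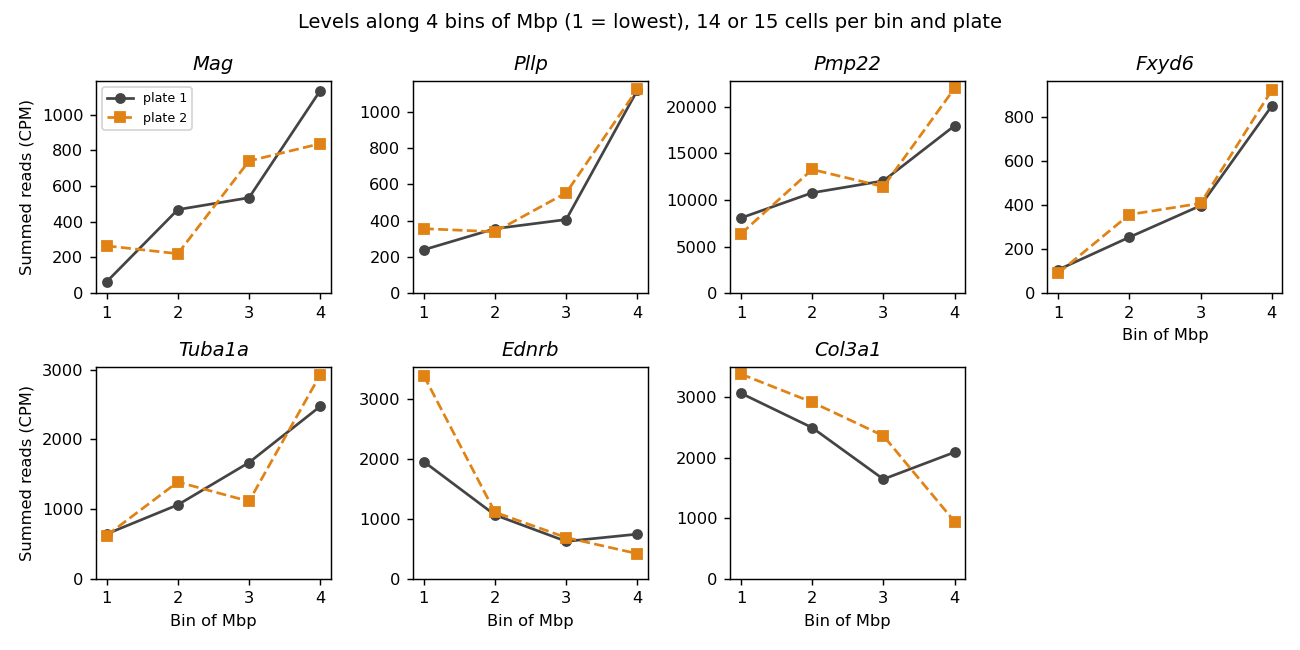
Summed CPM of 7 genes in 4 bins of *Mbp* per plate, from the lowest (1) to the highest (4), with circles for plate 1 and squares for plate 2. *Mag*, *Pllp*, *Pmp22*, *Fxyd6* and *Tuba1a* are highest in bin 4 on both plates, and *Ednrb* and *Col3a1* are highest in bin 1.

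Cell by cell, *Mbp* was set against 2283 genes detected in enough cells of both plates, as a description over 59 and 60 cells that share library, depth and base composition within a cell. Spearman rho was positive on both plates for 1001 genes and negative on both for 571, and reached 0.4 on both plates for 28 and -0.4 on both for 8. The highest means over plates were those of *Mag* (0.73 and 0.59), *Pmp22* (0.59 and 0.71), *Tuba1a* (0.59 and 0.62), *Fxyd6* (0.65 and 0.53) and *Cnp* (0.58 and 0.59). Among the 5 lowest were *Rpl35* (-0.59 and -0.49), *Wdr38*, which overlaps *Rpl35*, *Gm2000* and the ubiquitin gene *Ubb* (-0.45 and -0.48). Of 80 ribosomal protein genes, 68 had a negative rho on both plates. All these levels are shares of the same reads, and the part of this in the rho values was not tested.

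**Figure D5:**
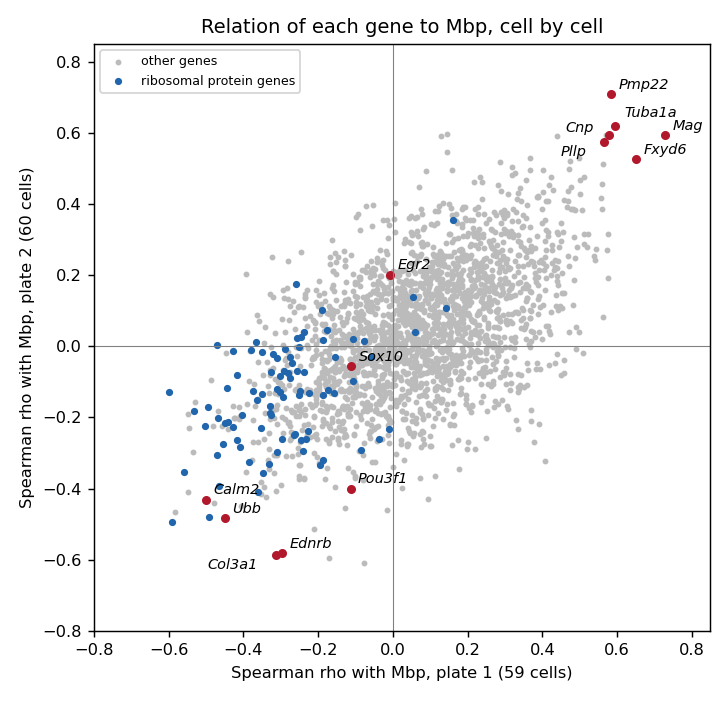
Each point is 1 of 2283 genes, with the Spearman rho of its CPM with *Mbp* over 59 cells of plate 1 on the horizontal axis and over 60 cells of plate 2 on the vertical axis. Named myelin genes lie at the upper right, *Egr2* and *Sox10* near 0, and ribosomal protein genes (blue) mostly at the lower left.

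Whether a gene's ratio between Mbp-high and Mbp-low cells differs between Ncmap-positive and Ncmap-negative noncycling cells was tested by the interaction term over 8 sums. The populations were split at unlike levels of *Mbp*, with plate medians of 7885 and 7557 CPM against 1808 and 2427 CPM. The ratio of *Mbp* itself was smaller in Ncmap-positive cells (interaction -0.51 on the log2 scale). The term therefore compares ratios over different ranges of *Mbp*. At an adjusted p under 0.05 edgeR called 0 of 13132 genes (0%), with 742 at an unadjusted p under 0.05, limma called 0 and DESeq2 called 466. The 5 genes named for the interaction were *Emid1*, *Tm4sf1*, *Slc43a3*, *Epha5* and *Ednrb*. They were not the 5 with the smallest p. *L1cam*, which is not among them, had an unadjusted p of 0.000508 (edgeR), below those of *Epha5* (0.00193) and *Ednrb* (0.00196). *Emid1*, a matrix protein with an EMI domain, took 626 and 651 CPM against 340 and 368 CPM in Ncmap-positive cells, and 23.1 and 13.2 CPM against 0.667 and 1.19 CPM in Ncmap-negative cells. Its interaction was -3.43 on the log2 scale (SE 0.49, adjusted p = 0.263, edgeR), a smaller ratio at a far higher level. For *Ednrb* the interaction was -1.16 (SE 0.27, adjusted p = 0.87, edgeR), a wider ratio at a lower level in Ncmap-positive cells. *Mag* gave an interaction of -0.23 and was at 68.6 and 114 CPM against 1.42 and 48.9 CPM in Ncmap-negative cells. For *Tm4sf1* and *Slc43a3* the reads in Ncmap-positive cells all came from at most 3 cells of a plate and group.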

How the data were processed

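Raw counts of reads per gene and well were deposited by the authors in a table of 25700 genes and 743 wells, with no normalization and no molecular identifiers. The submitters' processing notes name bcl2fastq, STAR 2.6.1c, featureCounts and GRCm38.p5. The methods of the study name another STAR version and a human assembly, while the gene IDs are those of mouse. Strand use is not stated. Of the IDs, 25587 matched a symbol of GENCODE M21, and 16 that shared a symbol kept their ID. Cells had at least 1500 genes. No doublet caller was run, as cells were sorted 1 per well. The sample titles gave the plate of each well.

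Reads were summed per plate and group and tested with edgeR 4.0.16 (TMM, filterByExpr, robust glmQLFit and glmQLFTest, no plate term, Benjamini-Hochberg adjustment without the 4 genes of the rule) in R 4.3.3. Standard errors were derived from the fold change and its F statistic. The deposited counts were scaled to CPM (1000000 per sum or cell), not corrected for gene length, so levels are compared within a gene. DESeq2 1.42.0, limma 3.58.1 on log2(mean CPM + 1) and other cell and gene filters were alternatives. In 1 alternative, cells were split at the median of *Mbp* separately above and below the plate's median of detected genes. Groups balanced in this way differed less in *Mbp* (log2 fold change 1.22 against 1.51). Both sums of a plate share their mice, so the plate numbers pair them. The deviations of the paired sums correlated with r = 0.024 over 6157 genes.

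Members, gene lists and the rule for named genes were chosen with earlier results of these data known. The rule names the genes of the selection, a fixed list of myelin genes, in each direction the 10 genes leading the comparison (at least 50 CPM in the higher group and no more than 50% of its reads in 3 cells), the 2 leading genes of each list, 5 of the interaction and the 5 highest and lowest by rho. *Pmp2*, *Cd9*, *Gjc3*, *Cadm2*, *Id2*, *Gal3st1* and *Dcn* were named after their values were seen. Some genes that the rule names are not reported here. Named genes that overlap another gene include *Tuba1a*, *Prx*, *Cnp*, *Gldn*, *Jun*, *Nab2*, *Cers2*, *Mgll*, *Surf4*, *Col3a1*, *Col1a2*, *Nid2* and *Raly*. Intervals and floors cover counting error only. The steps were tested on simulated data.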

Additional observations from a re-analysis of the deposited data

Results flagged for a closer look

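Of the 122 wells with fewer than 1500 detected genes, which entered no comparison, 4 held *Ncmap* at or over 50 CPM, a signal of the selected gene outside the cells analysed. They had 140, 759, 1224 and 1068 detected genes, with *Mbp* at 0, 133400, 23450 and 14130 CPM. The first of them held 220 reads in all, of which 2 were *Ncmap*. The other 3 were all above the median of *Mbp* of their plate's Ncmap-positive cells. A further 1 cell with *Ncmap* at or over 50 CPM was set aside for *Mki67* and *Top2a*. It was on plate 2, with 3179 detected genes, *Mbp* at 10330 CPM, *Ncmap* at 504.8 CPM, *Top2a* at 705.6 CPM and *Mki67* at 0 CPM.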

How the results depend on the processing

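Under edgeR the number of genes at an adjusted p under 0.05 was 0 in each direction with the plate as a replicate block, with cells thinned to 100000 reads, with *Ncmap* at 20 or 200 CPM, with 1000 or 2500 genes per cell, with the outer tertiles of *Mbp* only and with the groups balanced for detected genes. It was 8 and 4 without the filter on low counts, and DESeq2 gave 130 and 72. The unadjusted count of lower genes was 446 with DESeq2. At an unadjusted p under 0.05 there were 239 and 162 genes when a read in at least 25% of cells was required, and 203 and 165 with the balanced groups and the block, both chosen after seeing the data. With the block alone there were 283 and 214, and it changed no call. In the interaction, DESeq2 gave 466 genes, no filter 72 and the minimum of 1000 genes 1, with 1352 at an unadjusted p for DESeq2 and 225 for the filter on cells. The cause was not tested. Of 72 named genes tested, 58 kept their sign in every alternative that gave a value. The other 14 include *Egr2*, *Scd2*, *Ncam1*, *Qk*, *Sox2*, *L1cam*, *Rbl1*, *Pik3r1*, *Drp2*, *Hmgcs1*, *Egr1*, *Eif2s3y* and *Kdm5d*. DESeq2 called 24 of the 72. Leaving out plate 1 changed the sign of 2 and leaving out plate 2 that of 4, as ratios with no test. Medians kept their sign in all 17 alternatives for compact and noncompact myelin (0.29 to 0.62 and 0.21 to 0.58), cholesterol (0.37 to 1.24), fatty acids, basal lamina, cytoskeleton, dissociation and PI3K, but not for negative regulators (-0.58 to 0.17), nodal genes (-0.05 to 1.04), transcription factors, receptors, immature markers, cell cycle or *Mbp* messenger RNA handling.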
